A study of Mus musculus with 12 samples.

Results

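Co-stimulatory and checkpoint surface molecules are the proteins by which a cell that shows antigen, or a macrophage, tells a T cell or a natural killer cell to respond or to stand down. The genes described were chosen by name from an nCounter immune panel: the B7 family members Icosl, Cd80, Cd86, Cd274, Pdcd1lg2 and Cd276, with Cd40, Cd48, Havcr2 and Lair1. Of these 10 genes, 8 had a row in the count table, out of 545 endogenous genes in all. Cd276 and Havcr2 are not analysed here. Of the 8, only Icosl, Cd80, Cd86, Cd274 and Lair1 (5 genes) exceeded the negative-control probes often enough to enter the test, as did 357 genes of the panel in all. Each of the 5 was above that level in 12 of 12 samples, and the remaining 3 genes in 0 to 3.

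The samples were microglia, the resident macrophages of the brain, sorted from the hippocampus of male Balbc mice at postnatal day 28. In 6 brief daily separation (BDS) samples the pups had been parted from the mother on postnatal days 1 to 21, each day for 15 min, and 6 control samples came from pups labelled as controls. Each sample came from another litter, so replicates are biological. The surface markers used for the sort are not stated. A fluorescent barcode was counted for each transcript, with 1 probe per gene, after 2 ng of RNA had been copied to cDNA and amplified in 5 rounds of PCR.

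As background, the B7 ligands sit on antigen-presenting cells and meet receptors on T cells. Cd80 and Cd86 bind both the activating receptor CD28 and the inhibitory receptor CTLA-4, Icosl binds the activating receptor ICOS, and Cd274 (PD-L1) and Pdcd1lg2 (PD-L2) bind the inhibitory receptor PD-1. Cd40 is the receptor through which T cells carrying its ligand activate macrophages and B cells, Cd48 is a ligand of Cd244 and Cd2, and Lair1 is an inhibitory receptor of myeloid cells and lymphocytes that binds collagen. Resting microglia are known to carry little of most of these proteins and to raise them when activated.

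Promoters are shown for the gene with the smallest p-value, Icosl, and for Lair1, which varied together with Cd86 as described below. These 2 genes, and the motifs searched in them, were chosen after the values were seen. Both come from RefSeq (GRCm38.p6), which had an entry for 6 of the 8 genes, and run from 250 bases before to 50 bases after an annotated start site. The Icosl window is chr10:78069118-78069417 on the plus strand, and the Lair1 window is chr7:4063155-4063454 on the minus strand. Capitals mark motif letters found on either strand: the NF-kB consensus in Icosl and GAGGAA, the core letters bound by the macrophage factor PU.1, in Lair1. Both matches are read on the opposite strand.
Icosl: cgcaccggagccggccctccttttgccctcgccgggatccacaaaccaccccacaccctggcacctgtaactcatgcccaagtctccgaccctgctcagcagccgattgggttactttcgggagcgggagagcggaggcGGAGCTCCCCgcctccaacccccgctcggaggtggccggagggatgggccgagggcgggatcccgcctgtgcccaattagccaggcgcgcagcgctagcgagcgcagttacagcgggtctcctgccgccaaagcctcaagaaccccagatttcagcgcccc
Lair1: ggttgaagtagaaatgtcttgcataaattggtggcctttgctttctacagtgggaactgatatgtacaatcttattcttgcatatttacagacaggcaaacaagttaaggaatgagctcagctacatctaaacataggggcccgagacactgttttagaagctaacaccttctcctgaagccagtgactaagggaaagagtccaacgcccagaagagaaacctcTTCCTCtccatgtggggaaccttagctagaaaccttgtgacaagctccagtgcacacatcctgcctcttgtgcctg
The NF-kB letters lay at bases -111 to -102 of the Icosl window and occur in 8.46% of the 32851 promoters of the table. The PU.1 letters lay at bases -26 to -21 of the Lair1 window and occur in 28.3% of promoters. The Pdcd1lg2 window also held NF-kB letters, at bases -244 to -235, and PU.1 letters, at bases -82 to -77. TTCNNNGAA (STAT, found in 8.3% of promoters) and the IRF consensus of interferon regulatory factors (found in 3.44%) had no match in the 6 windows. The windows of Cd80, Cd274 and Cd48 held no match to any of these motifs. The motifs were searched on both strands and no matches overlapped in these windows. A match of letters is a description of the sequence and not of binding.

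Total counts were 641756 to 1171355 in BDS samples and 893936 to 1409376 in control samples. Transcripts known from microglia were abundant. Of 12 listed microglia markers 8 were on the panel, with P2ry12 and Tmem119 not among them. Csf1r had a median of 93350 normalized counts in BDS and 84527 in control samples, Cx3cr1 13709 in BDS and 14669 in control samples, and Itgam 35350 in BDS and 39258 in control samples. Housekeeping counts were lowest in the 3 BDS samples numbered 21, 25 and 55, whose scaling factors of 0.61, 0.65 and 0.85 compare with 0.87 to 1.47 in the 9 remaining samples. The same samples had the highest count ratios of Rpl19 to Polr2a, both housekeeping transcripts, at 0.79, 0.61 and 0.47, with 0.27 as the highest control value. The part of RNA amount or quality in the results was not tested. Results are also given without these samples, called the low-housekeeping samples. Counts were divided by this factor, the geometric mean of 6 housekeeping genes, and are called normalized counts. The counts of 2 probes differ with the probes' efficiency, so levels are compared between samples and not between genes. In bulk RNA of sorted cells, fewer cells of a type and less RNA per cell cannot be told apart.

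The comparison of BDS with control microglia asks whether these surface signals differ after early separation. All 5 tested genes had log2 fold changes below 0, and none passed the adjusted threshold (edgeR quasi-likelihood test, Benjamini-Hochberg over 357 genes). DESeq2 with the same scaling called 6 genes of the panel and voom with quality weights 16, with 0 of the 5 among them in either. Icosl was the only one of the 5 with an unadjusted p under 0.05. On the panel, 0.0% of genes passed the adjusted threshold, 11.5% were lower and 0.84% higher in BDS at an unadjusted p under 0.05 (12.3% in either direction), and 66.1% had log2 fold changes below 0. Every BDS sample lay below every control for 1.12% of panel genes and above every control for 0.0%, and for 0 of the 5 genes in either direction. The median log2 fold change was -0.18 for the 5 genes and -0.10 for the panel.

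Icosl, the ligand of ICOS, had normalized counts of 1301 at the lowest, 1509 at the median and 1682 at the highest in BDS samples, against 1498, 1781 and 2170 in control samples. All 6 BDS samples lay below the control median and 5 of 6 controls lay above the highest BDS sample, with control 9 the exception, so the groups overlapped through that sample. The means were 1509 ± 129 in BDS and 1797 ± 221 in control samples (SD, n = 6 each), a log2 fold change of -0.25 ± 0.10 (SE; edgeR, unadjusted p = 0.019, adjusted p = 0.28). The authors' deposited table gives a fold of 0.85 and an unadjusted p of 0.0274 for Icosl. With TMM scaling, which centres on the tested genes themselves, the log2 fold change was -0.15 (unadjusted p = 0.11), and without control 44, the highest control, it was -0.19 (unadjusted p = 0.057). Without the low-housekeeping samples it was -0.17 (unadjusted p = 0.14). Without control 9 it was -0.30 (edgeR, unadjusted p = 0.0066, adjusted p = 0.19). The unadjusted p was under 0.05 in 23 of 28 alternatives, which share samples, and none passed the adjusted threshold.

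Cd80 and Cd86 share their receptors on T cells. Cd80 had 498, 780 and 907 normalized counts at the lowest, median and highest in BDS samples, against 810, 880 and 1053 in control samples. Of the 6 BDS samples, 4 lay below the lowest control, BDS 7 and BDS 35 lay within the control range, and BDS 55 stood well below the rest at 498. The means were 756 ± 139 in BDS and 902 ± 99 in control samples (SD, n = 6 each; log2 fold change -0.25 ± 0.13 SE; edgeR, unadjusted p = 0.068, adjusted p = 0.40). Without BDS 55 the log2 fold change of Cd80 was -0.16, and without the low-housekeeping samples it was -0.11. Without BDS 35 it was -0.31 (edgeR, unadjusted p = 0.033, adjusted p = 0.28). The unadjusted p was under 0.05 in 3 of 28 alternatives: that one, voom with quality weights and the exact permutation test.

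Cd86 had 3339, 4209 and 6648 normalized counts at the lowest, median and highest in BDS samples, against 3874, 5141 and 6454 in control samples. The ranges overlapped almost entirely, since BDS 7 was the highest sample of all and BDS 25 the lowest. The means were 4525 ± 1193 in BDS and 5088 ± 905 in control samples (SD, n = 6 each; log2 fold change -0.17 ± 0.16 SE; edgeR, unadjusted p = 0.31, adjusted p = 0.64). With all samples kept, the log2 fold change was -0.08 with TMM scaling, -0.03 with the housekeeping factor as covariate and -0.29 with voom quality weights. It was -0.31 without BDS 7 (unadjusted p = 0.036, adjusted p = 0.16), -0.10 without BDS 25 and -0.09 without control 54.

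**Figure D1:**
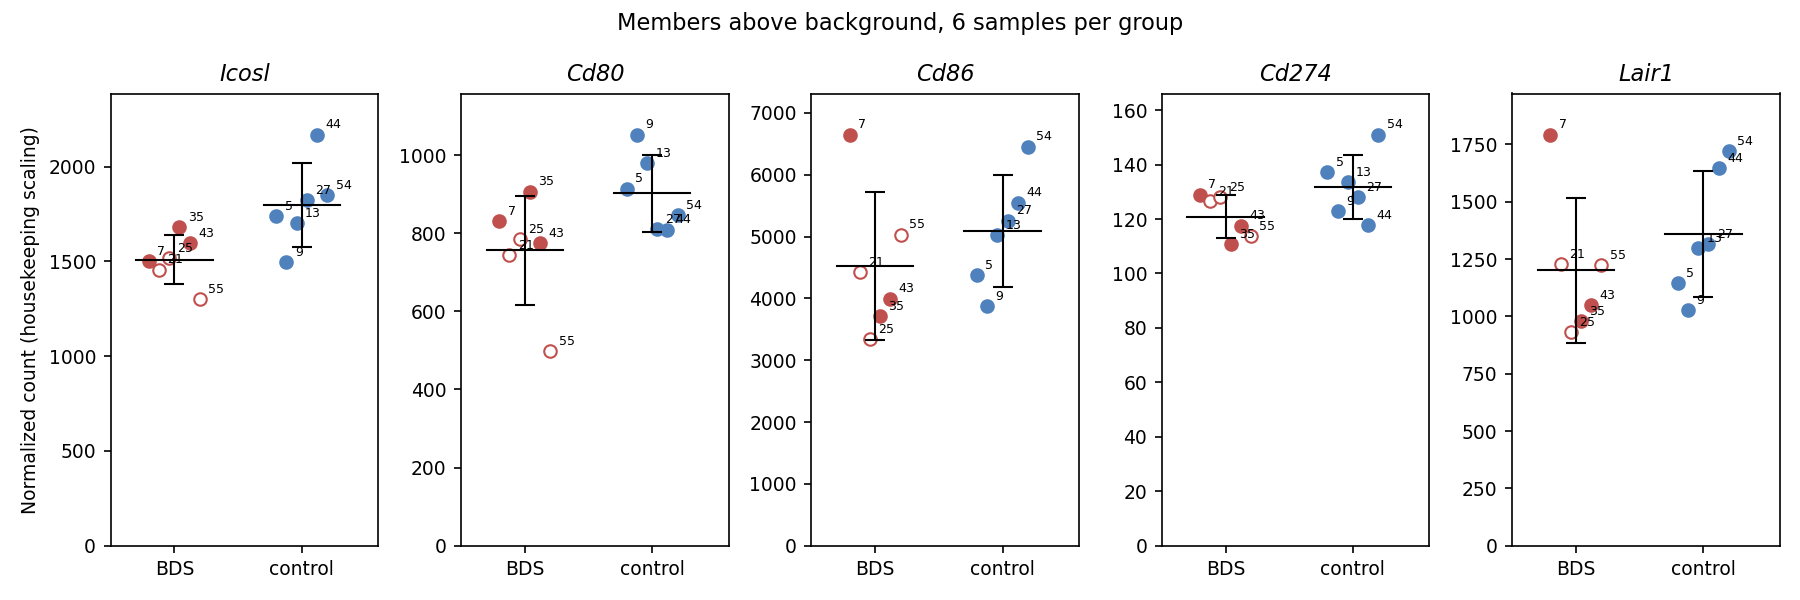
Normalized counts of the 5 genes above background (vertical axes from 0) in 6 BDS and 6 control samples. Each point is a sample with its number, open points are the low-housekeeping samples, and bars are mean ± SD. The Icosl points of BDS lie between 1301 and 1682, with control 9 at 1498 among them, while BDS 7 stands highest for Cd86 and Lair1.

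Among the ligands of PD-1, Cd274 had 111, 122 and 129 normalized counts at the lowest, median and highest in BDS samples, against 118, 131 and 151 in control samples. All 6 BDS samples lay below the control median, 3 of them below the lowest control. The means were 121 ± 7.9 in BDS and 132 ± 11.8 in control samples (SD, n = 6 each; log2 fold change -0.13 ± 0.11 SE; edgeR, unadjusted p = 0.27, adjusted p = 0.60). With TMM scaling the log2 fold change was -0.03, and without control 54 it was -0.08. Raw counts of Cd274 were 77 to 151 in BDS and 120 to 222 in control samples.

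Lair1, the collagen receptor, had 931, 1137 and 1793 normalized counts at the lowest, median and highest in BDS samples, against 1027, 1306 and 1721 in control samples. BDS 7 was again the highest of all samples and BDS 25 the lowest. The means were 1201 ± 315 in BDS and 1358 ± 274 in control samples (SD, n = 6 each; log2 fold change -0.18 ± 0.17 SE; edgeR, unadjusted p = 0.31, adjusted p = 0.64). Without BDS 7 the log2 fold change was -0.33 (unadjusted p = 0.033, adjusted p = 0.15), without control 54 it was -0.10, and without BDS 25 or control 44 it was -0.11 and -0.12. With TMM scaling it was -0.09, and with the housekeeping factor as covariate -0.06.

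**Figure D2:**
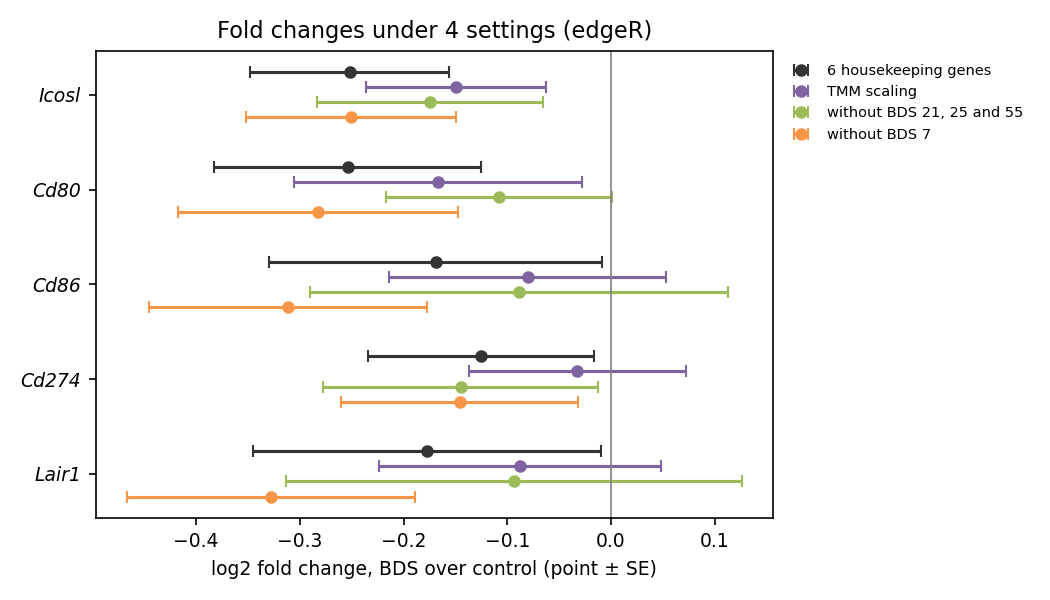
Log2 fold changes, BDS over control, of the 5 tested genes (points, with SE as bars) with housekeeping scaling, with TMM scaling, without 3 BDS samples and without BDS 7. All points lie left of 0, and Cd86 and Lair1 shift most when BDS 7 is left out, to -0.31 and -0.33.

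How far below 0 these values lay changed with the scaling and with the samples included. With TMM the panel median was -0.01, against -0.10 with the housekeeping genes, and the median of the 5 genes was -0.09, against -0.18. With TMM 0 of the 5 genes had an unadjusted p under 0.05, and likewise 0 of the 5 without the low-housekeeping samples, where their median was -0.11 and the panel median -0.09. With 1 sample left out, the median of the 5 genes ran from -0.28 (without BDS 7) to -0.10 (without control 54).

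Cd40, Cd48 and Pdcd1lg2 gave counts near those of the negative-control probes, which ranged from 1 to 21 per probe. Raw counts of Cd40 were 7, 18.0 and 23 at the lowest, median and highest in BDS samples, against 8, 14.5 and 20 in control samples. They passed the background threshold of the sample, the mean plus 2 SD of its negative controls, in 2 BDS samples (BDS 21 and BDS 55) and in 0 control samples. This contrast depended on the threshold, since 2 BDS and 2 control samples lay above their highest negative control and 0 of either group above the mean plus 3 SD. After scaling, Cd40 had 19.7 ± 9.4 normalized counts in BDS and 12.6 ± 4.5 in control samples (SD, n = 6 each), with BDS 21 at 32.9, BDS 55 at 26.9 and BDS 25 at 21.6. Those are the samples with the smallest scaling factors, and the share of the scaling in this difference was not tested. With no filter on low counts, the log2 fold change of Cd40 was 0.58 ± 0.33 (SE; edgeR, unadjusted p = 0.096, adjusted p = 0.53). The authors' deposited table gives a fold of 1.57 for Cd40, with 33% of samples above background. Here Cd40 passed the mean plus 2 SD in 2 of 12 samples and the highest negative control in 4. The reason for the difference from the authors' share was not tested.

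Raw counts of Cd48 were 8, 14 and 22 at the lowest, median and highest in BDS samples, against 17, 18 and 18 in control samples. Cd48 passed the threshold in 1 BDS sample and 2 control samples, and its mean after scaling was 15.5 ± 3.8 normalized counts in BDS and 15.9 ± 3.2 in control samples (SD, n = 6 each). Pdcd1lg2, with raw counts of 7 to 16 in BDS and 7 to 17 in control samples, passed it in 0 of 12. With no filter on low counts, the log2 fold change was -0.03 for Cd48 (edgeR, unadjusted p = 0.93) and 0.02 for Pdcd1lg2 (unadjusted p = 1.0), so no difference was found, which does not show that the groups were alike.

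**Figure D3:**
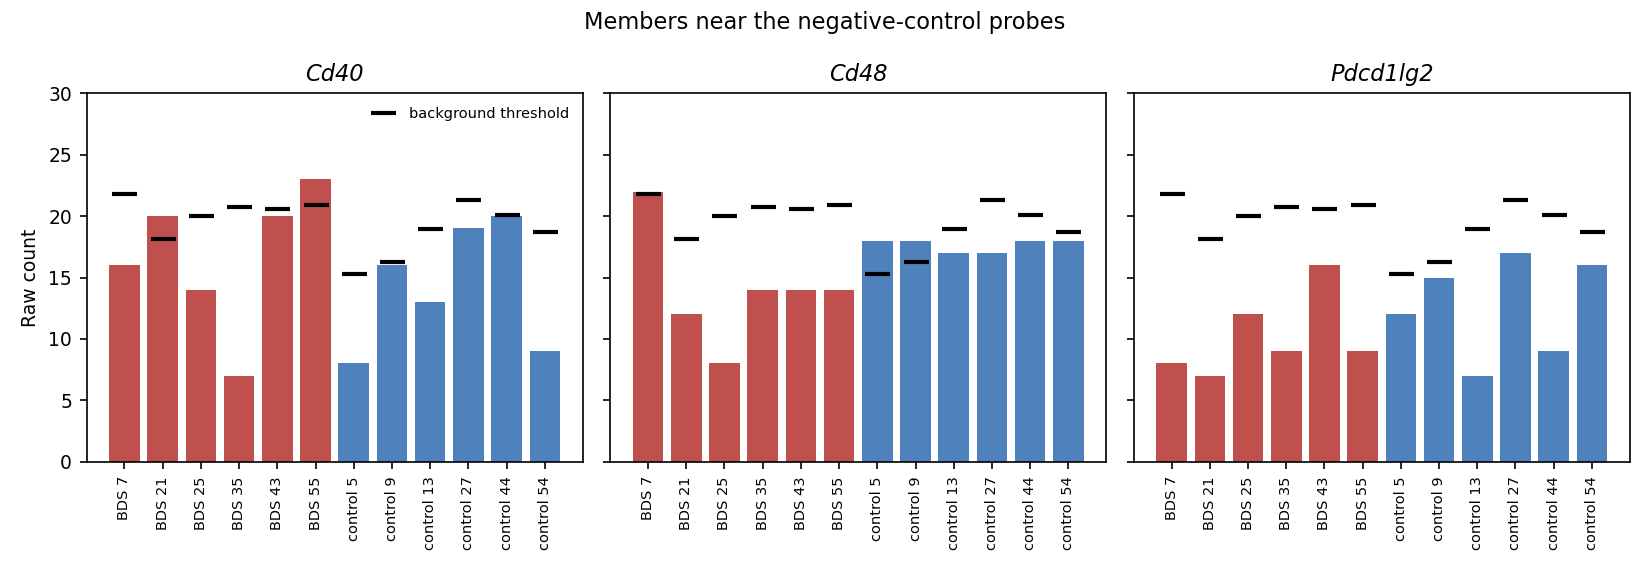
Raw counts of Cd40, Cd48 and Pdcd1lg2 (bars, axis from 0) in each of the 6 BDS (left) and 6 control samples (right of them), with the background threshold of each sample as a black mark. Bars pass the mark in 2 samples for Cd40, 3 for Cd48 and 0 for Pdcd1lg2.

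The genes were then compared with each other over the 12 samples, after the mean of each group had been removed from the log2 normalized counts. Cd86 and Lair1 varied together, and the other 9 of 10 pairs did not pass the adjusted threshold. For Cd86 and Lair1 Pearson's r was 0.97 (permutation test with 100000 resamples within groups, p = 1e-05, the smallest these can give; adjusted p = 0.0001 over 10 pairs) and Spearman's rho was 0.96 (permutation p = 2e-05, adjusted p = 0.0002). Without BDS 7 and BDS 25, the samples farthest from the median of Cd86, r was 0.94. Without the low-housekeeping samples it was 0.98 (n = 9, permutation p = 0.00021, adjusted p = 0.0021). Within the 6 BDS samples r was 0.98 (exact permutation p = 0.00278, adjusted p = 0.028) and rho 0.94 (exact permutation p = 0.0167, adjusted p = 0.17). Within the 6 control samples r was 0.96 (exact permutation p = 0.00417, adjusted p = 0.042) and rho 1.0 (exact permutation p = 0.00278, adjusted p = 0.028).

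The ratio of the raw counts of Cd86 and Lair1 in the same sample needs no scaling. This measure was chosen after their correlation had been seen, so it describes that relation further and is no separate support for it. It was 3.59 at the lowest, 3.75 at the median and 4.11 at the highest in BDS samples, against 3.37, 3.797 and 3.996 in control samples. The means were 3.77 ± 0.19 in BDS and 3.77 ± 0.21 in control samples (SD, n = 6 each), so the means differed by less than the SD of either group. Over all 12 samples the ratio had a coefficient of variation of 5.13%, while the 9 other pairs had 15.4% to 29.2%. Raw counts of Cd86 ran from 2166 to 9488 and those of Lair1 from 604 to 2530 over the same samples. As counts of 2 probes, the ratio is not a ratio of molecules.

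**Figure D4:**
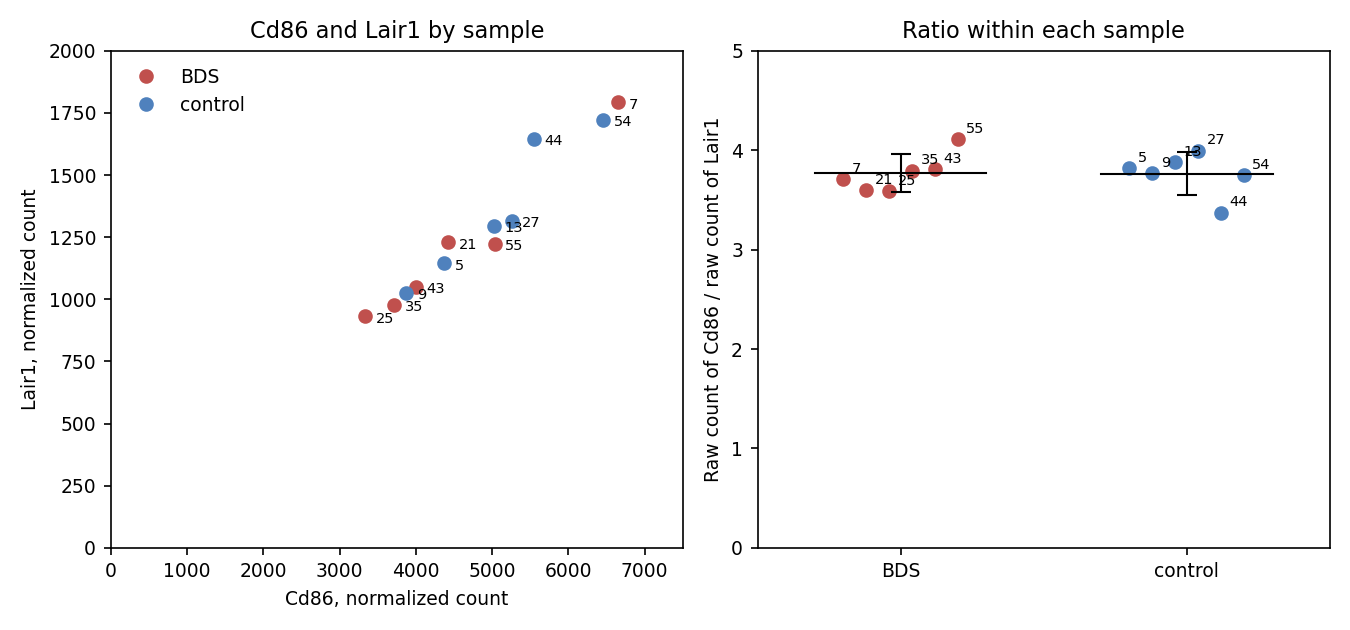
Left, normalized counts of Lair1 against Cd86 in 6 BDS and 6 control samples, numbered by sample. Right, raw count of Cd86 over raw count of Lair1 in each sample, with mean ± SD. The samples of both groups lie along one line, and all 12 ratios lie between 3.37 and 4.11.

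The next genes are those that meet or stand beside the members, from lists chosen with earlier results of these data known. Of 10 partner receptors and ligands of the members, 8 were on the panel and 4 were above background, all 4 with log2 fold changes below 0 and 0 at an unadjusted p under 0.05. Ceacam1, an adhesion receptor that can bind Havcr2, had 986 to 1965 normalized counts in BDS and 1589 to 1783 in control samples (log2 fold change -0.19, 0.10 without the low-housekeeping samples). Icos, the receptor of Icosl, had 124 ± 18 normalized counts in BDS and 143 ± 32 in control samples, and Pdcd1, which encodes PD-1, had 66.7 ± 13.2 in BDS and 73.0 ± 15.3 in control samples (SD, n = 6 each). Icos and Pdcd1 are known from T cells. Of 14 T cell markers on the panel, 6 were above background, namely Icos, Tcf7, Cd5, Lck, Cd4 and Cd8b1. Cd3d, Cd3e, Cd247, Cd28 and Zap70 passed the threshold in 0 of 12 samples. The summed T cell markers, Icos among them, ran from 336 to 496 normalized counts in BDS and from 335 to 455 in control samples.

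Of 36 other co-stimulatory and checkpoint molecules, 18 were on the panel and 10 above background, 5 with log2 fold changes below 0 and 5 above, and 0 had an unadjusted p under 0.05. Those with the smallest p were near background. Cd24a, a surface sialoprotein, was at 22.4 ± 4.7 normalized counts in BDS and 17.3 ± 3.6 in control samples. Lilrb3, an inhibitory receptor of myeloid cells, was at 27.9 ± 6.4 in BDS and 35.2 ± 5.3 in control samples, and Tnfsf18, a ligand of the TNF family, was at 23.4 ± 9.2 in BDS and 17.6 ± 3.2 in control samples (SD, n = 6 each).

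Of 18 genes that signal below Cd40 or below inhibitory receptors, 14 were on the panel and 13 above background, 8 with log2 fold changes below 0 and 2 lower in BDS at an unadjusted p under 0.05. Nfkb1, a subunit of NF-kB, had 3063 ± 494 normalized counts in BDS and 3647 ± 185 in control samples (log2 fold change -0.25; edgeR, unadjusted p = 0.025, adjusted p = 0.34). Traf6, an adaptor of Cd40 and of Toll-like receptors, had 1245 ± 218 in BDS and 1498 ± 119 in control samples (log2 fold change -0.27; edgeR, unadjusted p = 0.035, adjusted p = 0.38). Nfkb2, the subunit of the non-canonical pathway used by Cd40, had 472 ± 160 in BDS and 691 ± 300 in control samples (log2 fold change -0.54; edgeR, unadjusted p = 0.055, adjusted p = 0.38). The medians of Nfkb2 were 450 in BDS and 608 in control samples, and the highest values 713 in BDS and 1279 in control samples. Without the low-housekeeping samples the log2 fold changes of Nfkb1, Traf6 and Nfkb2 were -0.08, -0.06 and -0.20.

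Of 21 regulators that set these molecules in myeloid cells, all 21 were on the panel and 19 above background, 16 with log2 fold changes below 0 and 2 lower in BDS at an unadjusted p under 0.05. Ifnar1 and Ifnar2 encode the chains of the type I interferon receptor. The log2 fold change was -0.19 for Ifnar1 (edgeR, unadjusted p = 0.048, adjusted p = 0.38). For Ifnar2 it was -0.16 (edgeR, unadjusted p = 0.090, adjusted p = 0.43). Without the low-housekeeping samples the log2 fold changes of Ifnar1 and Ifnar2 were -0.04 and -0.07, and with TMM scaling -0.10 and -0.07. In all, 4 of the 46 genes of these lists above background (8.7%) were lower in BDS at an unadjusted p under 0.05, where the panel's share was 11.5%. Medians of the 4 lists were -0.19 (partners), -0.08 (other molecules), -0.08 (signalling) and -0.10 (regulators), against -0.10 for the panel.

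Cd80, Cd86, Cd40 and Icosl are also carried by B cells and dendritic cells, whose markers on the panel were therefore examined. Of 11 B cell markers on the panel, 5 were above background, and Pax5, Cr2 and Cd22 passed the threshold in 0 of 12 samples. The summed B cell markers ran from 3576 to 5270 normalized counts in BDS and from 3714 to 4284 in control samples, most of it from Blnk and Btk. Of 6 dendritic cell markers, 4 (Cd83, Batf3, Irf4 and Itgax) were above background, with a sum of 1491 to 1920 in BDS and 1676 to 1992 in control samples. Most of that sum came from Cd83, with a mean of 1150 normalized counts in BDS and 1296 in control samples. Of 6 markers of blood monocytes and border macrophages, 2 were above background and Cd163, Cd209g and Marco passed the threshold in 0 of 12, with a sum of 296 to 475 in BDS and 320 to 530 in control samples. Of these markers, Ccr2, a chemokine receptor of blood monocytes, was at 292 ± 73 normalized counts in BDS and 377 ± 76 in control samples (SD, n = 6 each; log2 fold change -0.36; edgeR, unadjusted p = 0.049, adjusted p = 0.38), and the median monocyte sum was 331 in BDS and 433 in control samples. Tnfrsf13b, a B cell receptor of the TNF family, was at 40.7 ± 15.1 in BDS and 26.5 ± 2.5 in control samples (log2 fold change 0.59; edgeR, unadjusted p = 0.020, adjusted p = 0.29). These 2 were named after their values were seen. The ranges of the groups overlapped for each of these sums, and the part of other cells in the results was not tested.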

How the data were processed

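Barcode counts were deposited by the authors as whole-number counts per probe, without normalization, for 573 probes (545 endogenous, 14 housekeeping, 8 negative and 6 positive controls). A second deposited table holds scores, that is counts the authors had normalized to housekeeping genes and positive controls, then rounded, per the file headers and the design text. It also gives, per the file headers, for each gene an unadjusted p-value, the ratio (fold) of BDS to control, and the percent of samples that exceed background. Which software read the barcodes was not given in the sources used here.

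Counts were scaled to 6 housekeeping genes (Tbp, Sdha, Polr1b, Oaz1, Gapdh and Alas1) by their geometric mean, relative to the geometric mean over samples. Genes above the mean plus 2 SD of the sample's negative controls in at least 40% of samples (5 of 12) were tested with edgeR 4.0.16 (quasi-likelihood, R 4.3.3, no covariate) with Benjamini-Hochberg adjustment over 357 genes at 0.05. The test was checked on simulated data, drawn with the same scaling factors that the test then used. That check cannot cover the choice of scaling or the quality of the samples. Alternatives used other scalings, DESeq2 1.42.0, limma 3.58.1, other filters, background subtraction, an exact permutation test and each sample left out. The removal of BDS 21, BDS 25 and BDS 55 and the correlations within groups were added after seeing the data. The genes named were all members and, from each list, up to 3 above background with the smallest p. Markers of other cell types, absent or above background, were named beyond this rule, after their values were seen, as were the promoters, motifs and count ratios. Some genes that these rules name are not reported here. The members and lists were chosen with earlier results of these data known. The number of samples and counts limits precision, and total counts were 641756 to 1409376.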

Additional observations from a re-analysis of the deposited data

Results flagged for a closer look

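In BDS 7, Lair1 was at 1793 normalized counts, far above the other 5 BDS samples, which ran from 931 to 1229. Its gap to the next sample was 0.65 of the range of the group. Of 12 groups of values examined in this way, 1 held such a sample. Chance alone flags about 1 in 20 groups, and whether 1 of 12 exceeds that rate was not tested. The groups share samples, so they are not independent. Cd86 was also highest in BDS 7, at 6648 normalized counts, with BDS 55 next at 5032.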

How the results depend on the processing

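Each of the 5 log2 fold changes was computed under 28 alternatives. None of these 140 values turned sign and none passed the adjusted threshold, the smallest adjusted p being 0.10 (Icosl), with 1 adjusted p left undefined by DESeq2 (Cd274). Scaling by the positive controls and then the housekeeping genes gives the same values by construction. Of the 5 genes, 1 was lower at an unadjusted p under 0.05. This count was 0 with TMM scaling, with DESeq2's own size factors, with the housekeeping factor as covariate and without the low-housekeeping samples (BDS 21, 25 and 55), and 2 with voom quality weights and with the exact permutation test. With 1 sample left out it ran from 0 (without control 44) to 3 (without BDS 7). The panel's lower share was 11.5%, against 23.8% with voom quality weights and 24.6% without BDS 7. Of the genes of the 4 lists, 4 were lower at an unadjusted p under 0.05. This count was 1 with TMM scaling, with all housekeeping genes, with DESeq2's own size factors and with the covariate, 2 with 5 housekeeping genes and 10 with voom quality weights, and it ran from 1 to 11 (without BDS 7) with 1 sample left out. Those 10 and 11 of 46 genes compare with 85 and 88 of 357 on the panel. On the panel, 41 lower and 3 higher genes at an unadjusted p under 0.05 became 14 and 18 with TMM scaling. For pairs other than Cd86 and Lair1, r changed sign in some settings, never past the adjusted threshold. With TMM scaling r was -0.38 for Icosl and Cd86, -0.24 for Icosl and Lair1, -0.15 for Cd86 and Cd274 and -0.21 for Cd274 and Lair1. Without the low-housekeeping samples it was -0.70 for Icosl and Cd80 and -0.13 for Cd80 and Cd274. Within BDS it was -0.44 for Icosl and Cd86 and -0.36 for Icosl and Lair1, and within controls -0.87 for Icosl and Cd80 and -0.058 for Cd80 and Cd274. The causes were not tested. No paired analysis was possible because the groups share no sample number.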

Other observations

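The correlation of Icosl and Cd80 had opposite signs in the groups. Within the 6 BDS samples r was 0.91 (exact permutation p = 0.0153, adjusted p = 0.077 over 10 pairs; rho 0.77, exact permutation p = 0.103), and within the 6 control samples r was -0.87 (exact permutation p = 0.0153, adjusted p = 0.077; rho -0.94, exact permutation p = 0.0167). Neither passed the adjusted threshold, and the difference between the groups was not tested. In BDS 55 both genes were at their lowest, Icosl at 1301 and Cd80 at 498 normalized counts. In control 44 Icosl was at its highest, 2170, and Cd80 at its lowest among controls, 810.

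When all 356 other tested genes were ordered by their r with Cd86 over the 12 samples with group means removed, Lair1 came at rank 2 (0.97), after Entpd1, an enzyme that breaks down extracellular ATP (0.98). Ordered by r with Lair1, Cd86 came first, followed by Tgfbr1, a receptor chain for TGF-beta (0.96), and Entpd1 (0.95). This ordering was chosen after the values were seen, shares the scaling factors and libraries across genes, and carries no test. Cd80, which shares its receptors with Cd86, came at rank 311 of 356 for Cd86 (r = -0.38).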
